A study of Homo sapiens with 24 samples.

Results

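The genes described here are 10 immediate early genes. EGR1, EGR2, EGR3, FOS, FOSB, FOSL1, JUN, JUNB and JUND belong to the EGR and AP-1 families of transcription factors, and IER2 to neither. All 10 were taken by gene name from a deposited table of 58735 genes, and each name matched 1 row. The libraries are RNA-seq of Nalm6 and Sem, both established human lines from acute lymphoblastic leukaemia of B cell precursors, of which Sem carries a rearranged KMT2A gene. Each line was left untreated or received, for 24 h, 10 µM ibrutinib (an inhibitor of the kinase BTK), asparaginase (an enzyme that depletes asparagine), or both together, called the combination. This gave 8 groups of 3 libraries. The asparaginase dose is 1 IU/ml in 1 part of the labels and 0.5 IU/ml in another, and the time at which untreated cells were harvested was not stated. Each line is a single line in culture, and separate cultures were not described, so the p-values measure spread among 3 libraries that may be purely technical.

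Immediate early genes are transcribed within minutes of a signal, with no new protein needed. In B lineage cells, receptor and growth factor signals reach them through ERK and related kinases, which act on SRF and its ETS partners at CArG boxes and on CREB and ATF proteins at cAMP response elements. EGR proteins are zinc finger factors that bind GC-rich sites. FOS and JUN proteins pair through leucine zippers to form AP-1. The RNAs of many of these genes are short-lived.

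Levels are FPKM, that is reads per kilobase of gene times a scale for each library. The libraries held 15032962 to 18136344 reads in genes, and a single read over 1 kb was worth about 0.0601 FPKM in the median library. This scale did not simply follow the reads in genes. In Nalm6, 9 reads of EGR2 were 0.161 FPKM in untreated library 3 and 0.145 in asparaginase library 1. These libraries held 15391040 and 15395102 reads in genes. The origin of the scale was not tested, and all folds between groups rest on it. The 12 markers of B cell precursors all reached 1 FPKM in Nalm6 and 9 of 12 did in Sem, and the 7 genes of KMT2A-rearranged leukaemia reached it in Sem (7 of 7) and not in Nalm6 (0 of 7). Among the T, NK and myeloid cell markers, CD3D, CD3E, KLRD1, FCGR3A, ELANE, S100A8 and S100A9 were at 0 in all groups, while others were not. Of the 10 T and NK cell markers, 1 reached 1 FPKM in each line, and their summed level ran from 1.36 to 3.53 FPKM in Nalm6 and from 10.6 to 24.6 in Sem. Myeloid markers at 1 FPKM numbered 2 of 10 in untreated Sem and 1 in every other group. Their summed level ran from 4.23 to 14.5 FPKM in Nalm6 and from 1.87 to 6.25 in Sem. Of 8 mature B and plasma cell markers, 3 reached 1 FPKM in Nalm6 and 2 in Sem. Their sums ran from 118 to 168 FPKM in Nalm6 and from 88.7 to 115 in Sem. Of 8 erythroid and stromal markers, 0 reached 1 FPKM in Nalm6 and 1 in Sem, with sums up to 0.81 and 7.14 FPKM. A total of 5 libraries correlated less well with both partners than the partners did with each other (untreated 2, asparaginase 1 and combination 1 of Nalm6; untreated 2 and ibrutinib 1 of Sem). Calls of members that were lost or gained without them are given beside the result.

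The promoters shown are those of the members in which a searched motif was found. Promoter sequences from RefSeq (GRCh38.p14, 250 bases before to 50 after the start) were matched for 8 of the 10 members, all but EGR3 and FOSL1. Both strands were searched for the CArG box (CCWWWWWWGG, W being A or T) and the cAMP response element TGACGTCA. The AP-1 site TGANTCA and the EGR site GCGNGGGCG were searched in the same way, and no matches overlapped. EGR1 held 2 CArG boxes, starting 105 and 83 bases before the start, and 1 EGR site 198 bases before it. JUND held 1 cAMP response element 200 bases before its start. EGR2, FOS, FOSB, JUN, JUNB and IER2 held 0 matches of these motifs. Sites with other letters or outside the window were not searched. Of all 35116 promoters of this length, 1.29% held a CArG box, 9.43% an EGR site, 1.85% the cAMP response element and 7.71% the AP-1 site. These are matches of letters in a window and not measured binding. Capitals mark the matches in the EGR1 promoter (chr5:138465229-138465528, plus strand) and the JUND promoter (chr19:18281573-18281872, minus strand), each 5′ to 3′ along the gene.
EGR1: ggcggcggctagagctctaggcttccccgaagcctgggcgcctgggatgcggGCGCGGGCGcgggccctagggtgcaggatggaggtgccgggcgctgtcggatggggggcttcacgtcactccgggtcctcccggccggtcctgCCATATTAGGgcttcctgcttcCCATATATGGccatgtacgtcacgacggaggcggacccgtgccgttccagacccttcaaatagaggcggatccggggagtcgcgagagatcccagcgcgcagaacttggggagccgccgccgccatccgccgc
JUND: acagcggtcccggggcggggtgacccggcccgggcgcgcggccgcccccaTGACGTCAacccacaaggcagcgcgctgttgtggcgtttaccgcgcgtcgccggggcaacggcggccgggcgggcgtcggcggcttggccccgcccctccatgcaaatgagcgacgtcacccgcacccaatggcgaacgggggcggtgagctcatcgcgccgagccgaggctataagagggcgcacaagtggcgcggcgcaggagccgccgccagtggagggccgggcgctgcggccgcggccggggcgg

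In untreated cells, 3 members made up most of the signal in both lines. In Nalm6 the order was IER2 (38.5 FPKM ± 3.42), JUND (35.9 ± 2.93), JUNB (28.8 ± 4.12), JUN (2.88 ± 0.24) and EGR1 (2.85 ± 0.56; SD, n = 3 throughout). IER2 and JUND overlapped in Nalm6, as did JUN and EGR1. In Sem the order was JUND (96.8 ± 6.13), IER2 (54.0 ± 5.27), JUNB (26.3 ± 1.00), EGR1 (11.1 ± 3.03), JUN (2.95 ± 0.20), FOSL1 (1.86 ± 0.44) and FOS (1.24 ± 0.42), and the libraries of neighbours in this order did not overlap. EGR2, EGR3 and FOSB stayed under 1 FPKM in every library of both lines, and FOS and FOSL1 did so in Nalm6. The low members followed in Nalm6 in the order FOSB, EGR3, EGR2, FOS and FOSL1, from 0.40 down to 0.055 FPKM. The fourth EGR gene, EGR4, had 0 reads in all 24 libraries, where 3 reads would be at most 0.0869 FPKM.

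Between the untreated lines, 5 of the 7 members tested were higher in Sem, against 34.0% of all genes. A gene was tested if it reached 1 FPKM in 3 of the libraries fitted, on log2(FPKM + 1) with limma, and called at a Benjamini-Hochberg adjusted p under 0.05. EGR1 was 3.91-fold higher in Sem by mean FPKM (log2 difference 1.64 ± 0.20 SE, adjusted p = 3.97e-07). JUND was 2.70-fold higher (1.41 ± 0.11, adjusted p = 6.21e-10) and IER2 1.40-fold higher (0.48 ± 0.10, adjusted p = 0.000252). FOS (log2 difference 0.98) and FOSL1 (1.43) passed the level filter only through Sem libraries, so their difference is in part set by the filter. The members outside the test went the other way by mean FPKM. In Sem, FOSB was 5.65-fold lower (19 against 107 summed reads), EGR2 3.91-fold (6 against 23) and EGR3 1.77-fold (37 against 65). JUN and JUNB were not called (0.03 and -0.12). JUNB was called lower in Sem without untreated library 2 of Nalm6 (-0.24, adjusted p = 0.048) and without the libraries that stood apart (-0.27, adjusted p = 0.0079).

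**Figure D1:**
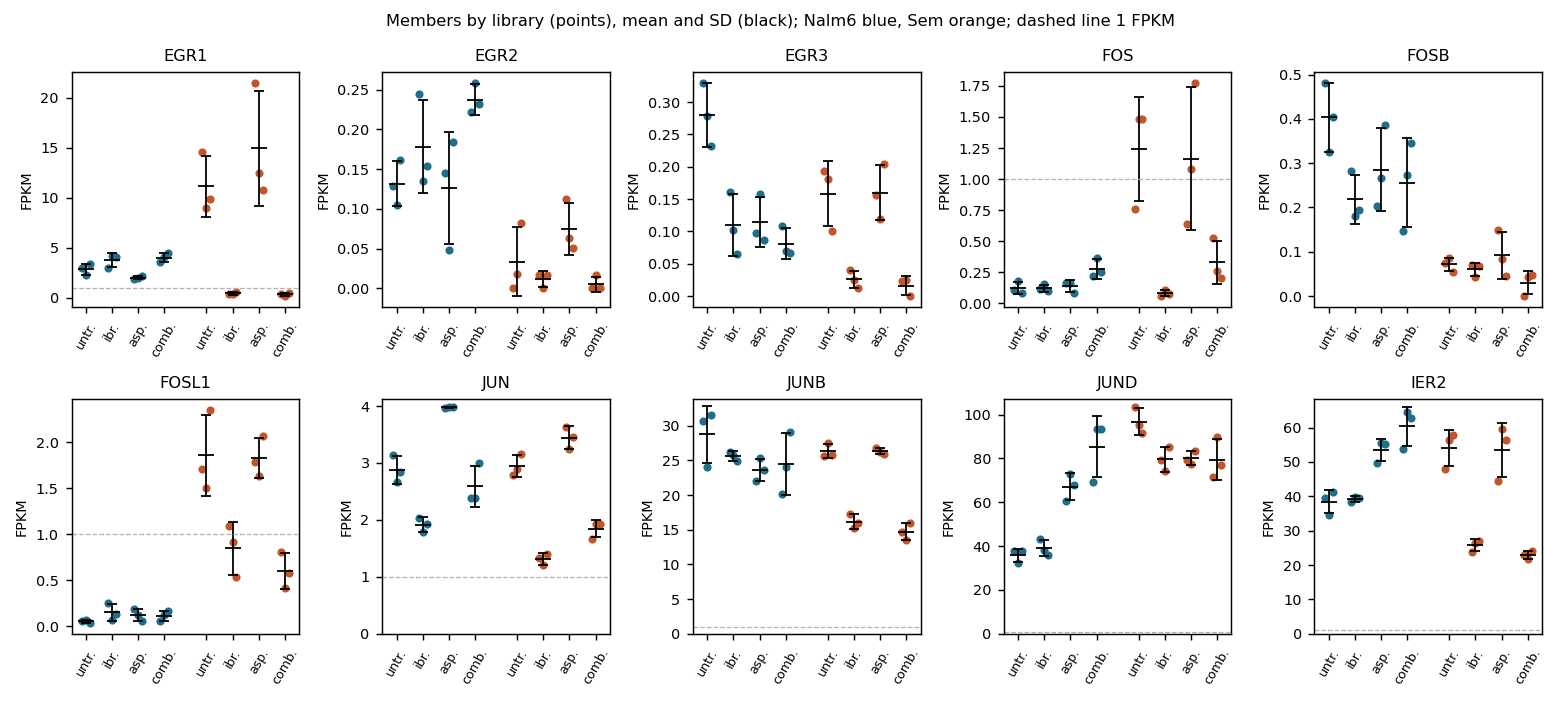
FPKM of the 10 genes in each of the 24 libraries (points; vertical axes differ between panels), with mean and SD per group; untr., ibr., asp. and comb. stand for untreated, ibrutinib, asparaginase and combination. EGR1 in Sem lies between 8.94 and 21.5 FPKM in untreated and asparaginase libraries and between 0.153 and 0.562 in ibrutinib and combination libraries, while JUND in Nalm6 is higher with asparaginase and the combination.

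EGR1 lost nearly all of its signal in Sem with ibrutinib. The gene (ENSG00000120738, chr5:138465490-138469315, plus strand) encodes a zinc finger factor induced by ERK signalling. In untreated Sem it stood at 14.6, 8.94 and 9.84 FPKM, and with ibrutinib at 0.391, 0.340 and 0.562. With asparaginase it stood at 21.5, 12.5 and 10.8 FPKM, and with the combination at 0.411, 0.153 and 0.433. The libraries with ibrutinib were all below those without it, and the ranges were far apart. The mean was 25.8-fold lower with ibrutinib than untreated (log2 change of FPKM + 1 -3.06 ± 0.23, adjusted p = 3.03e-06) and 44.9-fold lower with the combination than with asparaginase (-3.53 ± 0.23, adjusted p = 9.91e-07). The second fold would be 25.5 if 1 uncertain value in asparaginase library 1 were 10 times lower. The groups compared share no library, but both tests came from 1 fit over all Sem libraries with a shared spread. In Sem EGR1 reached 1 FPKM in the 6 libraries without ibrutinib and in 0 with it, so it was tested through the groups where it is high. In bulk RNA, fewer cells with a transcript and less transcript per cell cannot be told apart.

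EGR1 did not fall with ibrutinib in Nalm6. Its untreated libraries held 2.95, 2.24 and 3.35 FPKM, those with ibrutinib 2.99, 4.20 and 4.10, those with asparaginase 1.86, 1.94 and 2.19, and those with the combination 3.56, 4.03 and 4.46. The asparaginase libraries were all lower and the combination libraries all higher than the untreated ones, while those with ibrutinib overlapped them. The ibrutinib change was 0.31 ± 0.13 (adjusted p = 0.145), and the change in Sem minus that in Nalm6 was -3.37 ± 0.28 (adjusted p = 8.47e-08). EGR1 was called lower with asparaginase (-0.35, adjusted p = 0.037), higher with the combination (0.39, adjusted p = 0.0204) and higher with the combination than with asparaginase (0.74 ± 0.13, adjusted p = 0.00226). The asparaginase call was lost without untreated library 1 (adjusted p = 0.094) or 3 (0.14) or asparaginase library 1 (0.098) or 2 (0.085), and with no filter on low values (0.087). The combination call was lost without untreated library 2 (adjusted p = 0.083) or combination library 3 (0.075), with the libraries that stood apart left out (0.055) and under quantile normalization (0.13).

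One EGR1 value rests on an uncertain decimal place. Values of 1 or more had lost the decimal point in the deposited table and were restored from whole reads; in asparaginase library 1 of Sem the choice was between 980 and 98 reads, and 980 had a posterior probability of 0.848. With 98 reads, the change from asparaginase alone to the combination was -2.58 (adjusted p = 0.000805), still called. The ibrutinib change in Sem stayed at -3.06, with a higher adjusted p of 0.000244 through the shared spread. Its difference from the ibrutinib change in Nalm6 had an adjusted p of 8.23e-05. The change with asparaginase in Sem was not called either way (0.36 ± 0.23 with 980 reads, adjusted p = 0.276; -0.58 with 98, adjusted p = 0.363), so its direction was not determined. Its difference from the asparaginase change in Nalm6 was 0.71 with 980 reads, not called, and -0.23 with 98 (adjusted p = 0.755). With 980 reads it was called after quantile normalization (0.88, adjusted p = 0.017) and with a replicate block (0.024). It was also called without Nalm6 untreated library 2 (0.035) or Sem untreated library 1 (0.015), asparaginase library 2 (0.044) or 3 (0.017).

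EGR3 and EGR2, the relatives of EGR1, were near the limit of detection. EGR3 (on chromosome 8) had 16, 13 and 8 reads in untreated Sem, 3, 2 and 1 with ibrutinib, 11, 10 and 16 with asparaginase, and 2, 2 and 0 with the combination. In Nalm6 the 3 untreated libraries held 27, 21 and 17 reads of EGR3, and the 9 treated libraries 5 to 13. The untreated libraries were above all the treated ones in Nalm6, and in Sem those without ibrutinib were above all those with it. EGR3 did not reach 1 FPKM and was outside the main test; with no filter on low values it was called lower with ibrutinib in Sem (adjusted p = 0.00729) and in Nalm6 (0.0285), and with asparaginase (0.00574) and the combination (0.00132) in Nalm6. EGR2 (ENSG00000122877, chr10:62811996-62919900, minus strand) summed to 6, 2, 13 and 1 reads over the untreated, ibrutinib, asparaginase and combination libraries of Sem and to 23, 32, 25 and 47 in Nalm6. No drug comparison of EGR2 was called without the filter.

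FOS and FOSL1, the AP-1 partners that need a JUN protein to bind DNA as part of AP-1, reached 1 FPKM in Sem alone. FOS (ENSG00000170345, chr14:75278774-75282230, plus strand) stood at 0.761, 1.49 and 1.49 FPKM untreated, 0.0598, 0.110 and 0.0779 with ibrutinib, 0.638, 1.08 and 1.78 with asparaginase, and 0.525, 0.260 and 0.200 with the combination. The ibrutinib libraries held 3, 6 and 4 reads of FOS and were the lowest of the 4 groups; those of the combination lay between them and the untreated ones without overlap. FOS passed the level filter through 2 untreated and 2 asparaginase libraries, and through 0 with ibrutinib, so its calls are in part set by the filter. It was called lower with ibrutinib (-1.03 ± 0.20, adjusted p = 0.00205), with the combination (-0.75, adjusted p = 0.00964) and with the combination against asparaginase (-0.68, adjusted p = 0.022). The last call was lost without asparaginase library 3 (adjusted p = 0.091) or combination library 2 (0.063) or 3 (0.071). In Nalm6, FOS had 4 to 21 reads per library. Its 12, 21 and 15 reads with the combination were above the 6, 9 and 4 of the untreated libraries, a difference called with no filter on low values (adjusted p = 0.0225).

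FOSL1 (ENSG00000175592, chr11:65892049-65900573, minus strand), which encodes FRA-1, stood in Sem at 1.71, 1.51 and 2.36 FPKM untreated, 1.09, 0.911 and 0.534 with ibrutinib, 1.79, 1.64 and 2.07 with asparaginase, and 0.807, 0.414 and 0.584 with the combination. Libraries with ibrutinib were all below those without it. It passed the level filter through the 6 libraries without ibrutinib and 1 with it. It was called lower with ibrutinib (-0.63 ± 0.15, adjusted p = 0.00627) and with the combination against asparaginase (-0.83 ± 0.15, adjusted p = 0.00141). FOSB (ENSG00000125740, chr19:45467995-45475179, plus strand) reached at most 0.481 FPKM, in untreated Nalm6, and lies wholly inside ERCC1 on the other strand, at 11.1 FPKM in untreated Nalm6. Strandedness was not stated, so reads of the pair cannot be told apart. No drug comparison of FOSB was called, with or without the filter.

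The JUN genes encode the partners that can bind DNA as pairs among themselves or with FOS proteins. JUN (ENSG00000177606, chr1:58780788-58784327, minus strand) was called lower with ibrutinib in both lines. In Nalm6 it stood at 3.14, 2.66 and 2.84 FPKM untreated, 2.04, 1.78 and 1.93 with ibrutinib, 3.97, 3.98 and 3.98 with asparaginase, and 2.38, 2.38 and 3.00 with the combination. In Sem the values were 2.78, 2.89 and 3.17 untreated, 1.33, 1.21 and 1.41 with ibrutinib, 3.64, 3.24 and 3.46 with asparaginase, and 1.67, 1.94 and 1.92 with the combination. Within each line the ibrutinib libraries were the lowest and the asparaginase libraries the highest. The ibrutinib change was -0.41 ± 0.08 in Nalm6 (adjusted p = 0.00888) and -0.77 ± 0.07 in Sem (adjusted p = 1.23e-05), a difference of -0.36 ± 0.10 (adjusted p = 0.0166; 0.067 without the libraries that stood apart). The asparaginase change was 0.36 ± 0.08 in Nalm6 (adjusted p = 0.00253) and 0.17 ± 0.07 in Sem, where it was not called (adjusted p = 0.0952). With both drugs JUN was lower than with asparaginase in Nalm6 (-0.48, adjusted p = 0.00173) and in Sem (-0.65, adjusted p = 3.67e-05). Against untreated Nalm6 the combination was not called (-0.12, adjusted p = 0.226), but it was without combination library 3 (-0.20, adjusted p = 0.039) and after quantile normalization (-0.28, adjusted p = 0.0082).

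JUNB (ENSG00000171223, chr19:12791496-12793315, plus strand) fell with ibrutinib in Sem. Its libraries there held 25.6, 27.5 and 25.8 FPKM untreated, 17.3, 15.2 and 16.03 with ibrutinib, 26.8, 26.3 and 25.9 with asparaginase, and 14.6, 13.5 and 16.01 with the combination. Asparaginase libraries sat at the untreated level and both ibrutinib groups well below. The change was -0.67 ± 0.06 with ibrutinib (adjusted p = 1.16e-05), -0.80 ± 0.06 with the combination against asparaginase (adjusted p = 3.01e-06), and 0.00 ± 0.06 with asparaginase (adjusted p = 0.99). In Nalm6 the group means ran from 23.6 to 28.8 FPKM, and the ibrutinib, asparaginase and combination libraries each overlapped the untreated ones. The ibrutinib change there was -0.15 ± 0.13 (adjusted p = 0.464), but JUNB was called lower without the libraries that stood apart (-0.27, adjusted p = 0.031). The change in Sem minus that in Nalm6 was -0.52 ± 0.15 (adjusted p = 0.0223), lost without untreated library 2 of Nalm6 (adjusted p = 0.055) or ibrutinib library 2 of Sem (0.057). Without untreated library 2, JUNB was called lower in Nalm6 with asparaginase (-0.39, adjusted p = 0.02) and with the combination (-0.35, adjusted p = 0.026). Without all the libraries that stood apart these were also called (-0.34, adjusted p = 0.0078, and -0.23, adjusted p = 0.037), as was the asparaginase difference between the lines (0.37, adjusted p = 0.014; 0.27 with all libraries, adjusted p = 0.175). Leaving out combination library 3 of Nalm6 also gave the calls with asparaginase (adjusted p = 0.048) and the combination (0.02). Leaving out combination library 1 gave the asparaginase call (0.047). JUNB overlaps HOOK2 on the other strand, which had a median of 4.90 FPKM.

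JUND (ENSG00000130522, chr19:18279760-18281622, minus strand), often the constitutive AP-1 member, rose with asparaginase in Nalm6. Its libraries there held 37.5, 32.5 and 37.6 FPKM untreated, 43.3, 38.1 and 36.0 with ibrutinib, 60.7, 72.8 and 68.0 with asparaginase, and 69.2, 93.4 and 93.4 with the combination. Each library with asparaginase was above each without it. The mean was 1.87-fold higher with asparaginase (0.89 ± 0.12, adjusted p = 9.76e-05) and 2.38-fold higher with the combination (1.22 ± 0.12, adjusted p = 5.6e-06). The step from asparaginase to the combination was not called (0.33, adjusted p = 0.0749), but was without combination library 1 (0.47, adjusted p = 0.007), without the libraries that stood apart (0.40, adjusted p = 0.0077) and after quantile normalization (0.38, adjusted p = 0.043). Untreated Sem already held 104, 95.0 and 91.7 FPKM, and the 9 treated libraries there held 71.4 to 89.6. JUND was called lower in Sem with ibrutinib (-0.28, adjusted p = 0.0167), asparaginase (-0.27, adjusted p = 0.0294) and the combination (-0.29, adjusted p = 0.0111). None of these 3 calls held after quantile normalization (-0.07, -0.12 and -0.04), and without the libraries that stood apart the first 2 were lost (adjusted p = 0.064 and 0.065). The ibrutinib call was also lost without untreated library 1 (adjusted p = 0.066) or ibrutinib library 2 (0.065), and the asparaginase call without untreated library 1 (0.1) or asparaginase library 1 (0.078) or 2 (0.091) and with no filter on low values (0.076). The asparaginase change in Sem minus that in Nalm6 was -1.16 ± 0.15 (adjusted p = 1.11e-05).

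IER2 (ENSG00000160888, chr19:13150415-13154908, plus strand), a short-lived nuclear protein gene induced with FOS and JUN, moved apart in the 2 lines. In Sem it stood at 48.0, 56.3 and 57.7 FPKM untreated, 23.9, 26.5 and 27.1 with ibrutinib, 44.5, 59.7 and 56.3 with asparaginase, and 23.0, 21.7 and 24.0 with the combination. In Nalm6 it stood at 39.6, 34.6 and 41.2 FPKM untreated, 38.2, 39.8 and 39.4 with ibrutinib, 49.7, 55.4 and 55.1 with asparaginase, and 53.8, 64.5 and 62.9 with the combination. Sem thus separated by ibrutinib and Nalm6 by asparaginase. The mean was 2.09-fold lower with ibrutinib in Sem (-1.03 ± 0.10, adjusted p = 2.43e-05), with 0.03 ± 0.08 in Nalm6 (adjusted p = 0.855) and a difference of -1.06 ± 0.14 (adjusted p = 2.63e-05). With asparaginase it rose in Nalm6 (0.47 ± 0.08, adjusted p = 0.000519), was not called in Sem (-0.02 ± 0.10), and differed by -0.48 ± 0.14 (adjusted p = 0.0103). From asparaginase to the combination in Nalm6 the change was not called (0.17, adjusted p = 0.16), but it was without the libraries that stood apart (0.20, adjusted p = 0.0057) and without combination library 1 (0.25, adjusted p = 0.035). The antisense gene AC011446.2 (ENSG00000267598, chr19:13153071-13154193, minus strand) lies wholly within IER2 and had 35.6 FPKM in untreated Sem and 17.5 with ibrutinib, so that reads of either gene may have been counted for the other.

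Read by comparison, 7 of the 7 members tested in Sem were lower with ibrutinib, where 21.2% of all genes were. EGR1, FOS and FOSL1 passed the level filter there through libraries without ibrutinib (and 1 ibrutinib library of FOSL1), so this count is in part set by the filter; JUN, JUNB, JUND and IER2 were above 1 FPKM in all 12 libraries. With the combination against untreated Sem, which shares its controls with that comparison, 7 of 7 were lower (26.2% of genes lower). With the combination against asparaginase, 6 of 7 were lower (19.7% of genes lower), all but JUND (-0.02 ± 0.08). With asparaginase alone 1 of 7 was called, JUND, against 26.4% of genes in either direction. In Nalm6, where 5 members were tested, 1 was called with ibrutinib (12.5% of genes), 4 with asparaginase (56.2%), 3 with the combination (63.7%) and 2 with the combination against asparaginase (21.8%). With most genes called, the counts in Nalm6 with asparaginase and the combination say little about the members as a set.

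The interaction is the combination change minus the sum of both single-drug changes. By limma, 0 members were called for it in Nalm6 (5.57% of genes) and 0 in Sem (1.57%), and 1 in each line had an unadjusted p under 0.05. EGR1 was at 0.43 ± 0.18 in Nalm6 (adjusted p = 0.211) and JUND at 0.26 ± 0.11 in Sem (adjusted p = 0.286). IER2 was called in Nalm6 without the libraries that stood apart (0.25, adjusted p = 0.017). A change that differed between the lines was called for 6 of 7 members with ibrutinib, all lower in Sem (6.09% of genes lower), for 2 with asparaginase (15.7%) and for 7 with the combination (18.6%). FOS and FOSL1 are in the first and last of these counts; they reached 1 FPKM in 0 of 12 Nalm6 libraries and were tested only through Sem libraries, so a fall in Nalm6 could hardly have shown.

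**Figure D2:**
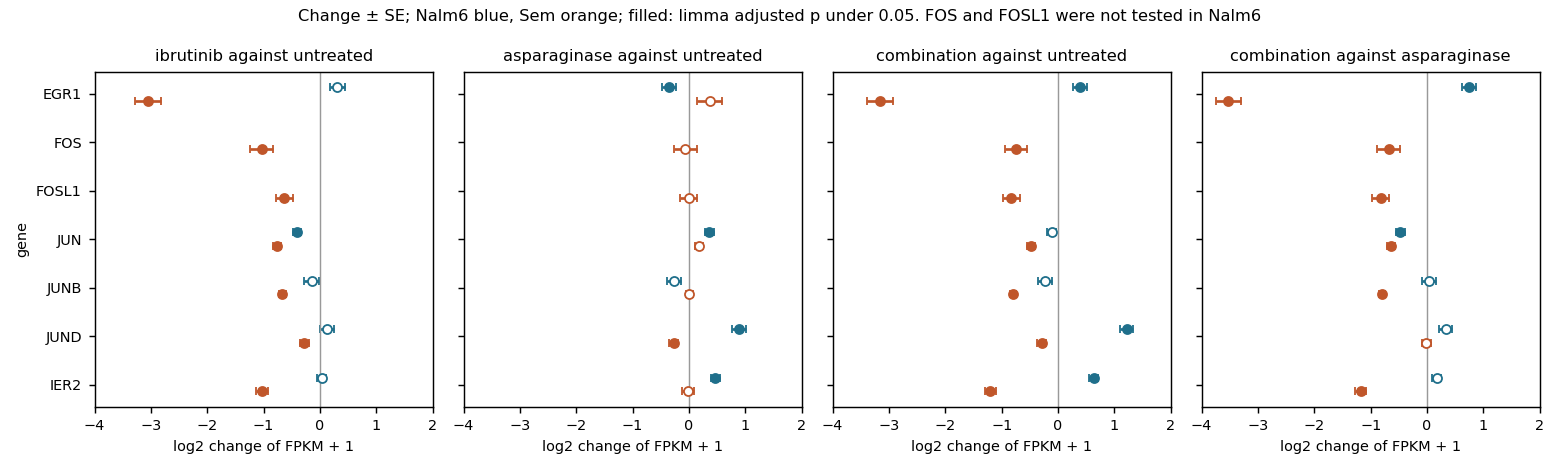
Log2 change of FPKM + 1 (points, bars are SE) of the 7 tested genes in Nalm6 (blue) and Sem (orange) for 4 comparisons; filled points passed an adjusted p of 0.05. In the ibrutinib panel the Sem points lie below 0 for 7 genes, from -3.06 for EGR1 to -0.28 for JUND, and JUN, at -0.41, is the 1 filled Nalm6 point.

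The FOS family was led by a gene outside the 10 in both lines. FOSL2, which encodes FRA-2, held 76.9% ± 1.09 of summed FOS-family FPKM in untreated Nalm6, where the sum was 2.52 ± 0.19, and 86.1% ± 2.60 in untreated Sem, where it was 22.7 ± 0.77. In Sem the sum was 13.1 ± 0.51 FPKM with ibrutinib, 22.1 ± 0.35 with asparaginase and 12.4 ± 0.34 with the combination. The share of FOS itself in Sem was 5.45% ± 1.70 untreated and 0.634% ± 0.20 with ibrutinib. In the JUN family, JUND gave 53.2% ± 1.45 of FPKM in untreated Nalm6, 58.6% ± 1.65 with ibrutinib, 70.8% ± 0.71 with asparaginase and 75.9% ± 1.83 with the combination. JUNB fell in share over the same groups, from 42.5% ± 1.68 to 21.8% ± 1.58, while its level was not called different. In Sem the JUND share was 76.8% ± 1.5 untreated, 82.0% ± 1.02 with ibrutinib, 72.9% ± 0.99 with asparaginase and 82.6% ± 2.34 with the combination. These shares are descriptions and were not tested.

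**Figure D3:**
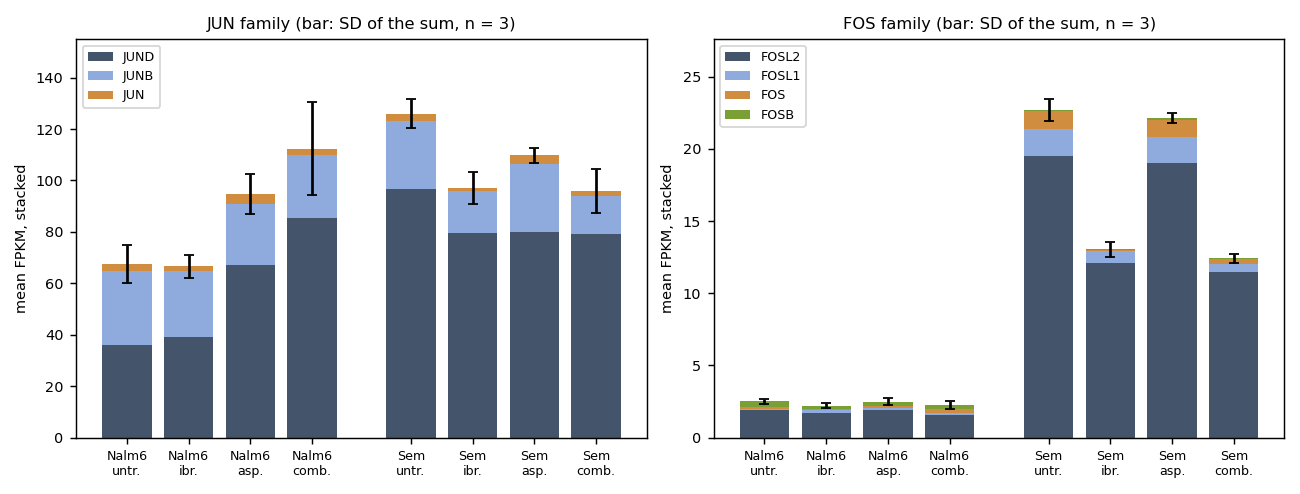
Mean FPKM of the JUN family (left) and the FOS family (right), stacked by gene, in the 8 groups; black bars are the SD of the sum over 3 libraries. The FOS-family sum is 22.7 FPKM in untreated Sem and 13.1 with ibrutinib, with FOSL2 the main part, against 2.52 in untreated Nalm6.

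Genes that work with the members were described from lists that hold no member. With ibrutinib in Sem, 3 of 3 tested EGR relatives and corepressors were called, where 41.4% of all genes were called in either direction. WT1 (-0.56) and the EGR corepressor NAB2 (-0.49) fell and NAB1 (0.25) rose. Of 10 AP-1 partners tested, 3 fell (FOSL2 -0.65 ± 0.03, BATF3 -1.05 ± 0.09, BATF -0.56 ± 0.14) and 3 rose (ATF2 0.22, MAFG 0.24, MAFK 0.38). FOSL2 stood at 19.5 FPKM ± 0.38 untreated and 12.1 ± 0.23 with ibrutinib, and BATF3 at 5.11 ± 0.16 and 1.96 ± 0.35. In Nalm6, where 12.5% of all genes were called with ibrutinib, 2 of 7 rose (JDP2 0.41, MAFG 0.21) and 0 fell, and FOSL2 was at -0.10, not called. FOSL2 and BATF3 differed between the lines (-0.55, adjusted p = 3.4e-05, and -1.06, adjusted p = 3.1e-06). BATF3 was close to 0 in Nalm6, at 0.047 FPKM untreated, where no fall could be measured.

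Asparaginase raised ATF3 and JDP2 in both lines. ATF3, an AP-1 partner that also belongs to the amino acid response, went from 1.502 FPKM ± 0.20 to 3.96 ± 0.16 in Nalm6 (0.99, adjusted p = 2.6e-06) and from 1.23 ± 0.36 to 3.15 ± 0.22 in Sem (0.91, adjusted p = 0.00016). JDP2, a repressor that pairs with JUN proteins, went from 4.24 ± 0.17 to 7.45 ± 0.31 in Nalm6 and from 1.15 ± 0.10 to 5.65 ± 0.39 in Sem, and its change was larger in Sem (0.94, adjusted p = 3.1e-07). In all, 4 AP-1 partners rose and 1 fell of 7 in Nalm6 (MAFK fell, -0.52; 56.2% of all genes called), and 4 rose and 1 fell of 10 in Sem (BATF fell, -0.50; 26.4% called).

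Among genes upstream, the ETS factor ELK3 moved in opposite directions. It went from 4.87 FPKM ± 0.61 to 2.81 ± 0.34 with ibrutinib in Sem (-0.62, adjusted p = 0.00052) and from 2.38 ± 0.12 to 3.64 ± 0.47 in Nalm6 (0.45, adjusted p = 0.0035), a difference of -1.07 ± 0.12 (adjusted p = 6e-06). Of 9 upstream transcription factors tested, 4 fell and 2 rose with ibrutinib in Sem (41.4% of all genes called), with SRF at -0.22 and CREB1 at 0.29. In Nalm6 1 rose (12.5% of all genes called). Of 13 kinases tested, 3 fell and 2 rose with ibrutinib in Sem, a share close to the 41.4% of all genes called, with MAP2K1 (MEK1) at -0.39, RPS6KA1 (RSK1) at -0.47 and MAPK8 (JNK1) at 0.28. By limma 0 of 13 were called with ibrutinib in Nalm6, beside 12.5% of all genes, and 3 had an unadjusted p under 0.05. RNA levels of these kinases say nothing about their activity. Of the AP-1 turnover genes, GSK3B was called higher in Sem (0.19; 41.4% of all genes called). In Nalm6 0 of 3 were called (12.5% of all genes), with 0 at an unadjusted p under 0.05.

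Other immediate early genes moved in both directions. With ibrutinib in Sem, where 41.4% of all genes were called, 8 rose and 8 fell of 25 tested, with TNFAIP3 (0.67) and BTG2 (0.54) higher and PLK3 (-0.56) and IER5 (-0.27) lower. The median over the 25 was -0.15, beside 0.01 over all genes tested. In Nalm6 (12.5% of genes called), 8 fell and 1 rose of 24, with RHOB at -1.07, TNFAIP3 at -0.34 and BTG2 at 0.79. TNFAIP3 differed between the lines by 1.01 (adjusted p = 7.5e-07). With asparaginase in Nalm6, 9 rose and 4 fell of 24, close to the 56.2% of all genes called, led by BTG2 (1.47) and ZFP36L1 (1.08). In Sem 3 rose and 3 fell of 25, beside 26.4% of all genes. The asparaginase change of BTG2 was lower in Sem than in Nalm6 by 1.74 on the log2 scale (adjusted p = 2.1e-09).

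Genes known to be induced by EGR or AP-1 factors in lymphocytes gave 4 lower and 1 higher of 9 tested with ibrutinib in Sem, beside 41.4% of all genes called. PLAUR, the urokinase receptor gene, went from 5.54 FPKM ± 0.40 to 1.99 ± 0.20 (-1.13, adjusted p = 1e-06). HBEGF, an EGF receptor ligand, went from 8.74 ± 0.28 to 3.01 ± 0.43 (-1.29, adjusted p = 2.3e-06), and the cytokine gene TNF from 4.18 ± 1.34 to 0.438 ± 0.26 (-1.83, adjusted p = 5.3e-05). NAB2 is the fourth, and ID2 rose (0.48). In Nalm6, where 12.5% of all genes were called, ibrutinib gave 3 lower and 1 higher of 8, with ID3 at -0.51 and TNF at 0.71. Each of PLAUR, HBEGF and TNF differed between the lines (-1.20, -1.06 and -2.54, adjusted p at most 2.2e-06). With asparaginase in Nalm6, ID3, a target of EGR factors downstream of antigen receptors, went from 55.9 FPKM ± 5.38 to 12.6 ± 0.60 (-2.06, adjusted p = 5.7e-09), while in Sem it went from 176 ± 13.6 to 134 ± 4.93 (-0.39, adjusted p = 0.00055).

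**Figure D4:**
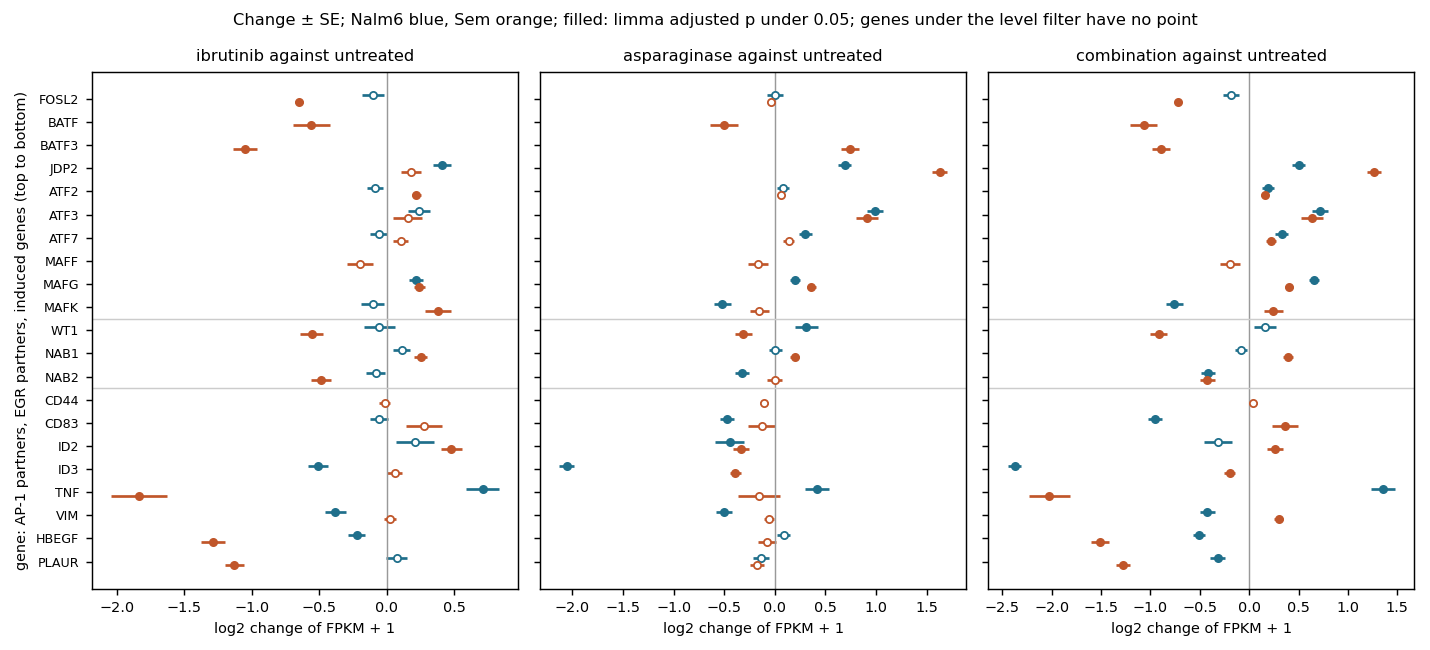
Log2 change of FPKM + 1 (points, bars are SE) of tested AP-1 partners, EGR relatives and corepressors, and genes known to be induced by EGR or AP-1 factors. The EGR relatives and corepressors are labelled EGR partners. Ibrutinib, asparaginase and the combination are each set against untreated, in Nalm6 (blue) and Sem (orange). Filled points passed an adjusted p of 0.05. With ibrutinib, PLAUR (-1.13), HBEGF (-1.29) and TNF (-1.83) lie below 0 in Sem, while TNF lies above 0 in Nalm6 (0.71); JDP2 and ATF3 lie above 0 with asparaginase in both lines.

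For each member above 1 FPKM, the gene with the most similar pattern was sought among 15116 genes, by Pearson r over the 24 libraries after subtracting the mean of each line. For EGR1 this was KCNK3 (r = 0.970), at 6.56 FPKM in untreated Sem and 0.066 with ibrutinib, then AHRR (0.967) and SPRY4 (0.966). For FOSL1 it was MIR155HG (0.938), for JUN CORO1A (0.938), for JUNB AP1B1 (0.942), and for JUND SEPTIN9 (0.960). For FOS it was NLRP3 (0.921). For IER2 it was its antisense neighbour AC011446.2 (0.978), which may share its reads, and then SLC43A2 (0.956). The other members were left out of the search. In Nalm6, NLRP3 and MIR155HG were at 0 FPKM in every group, KCNK3 at 0.0655 or less and SPRY4 at 0.204 or less, so their r rest mainly on the Sem libraries. FOS and FOSL1 themselves were under 1 FPKM in all Nalm6 libraries. All r given here describe points that share libraries and treatment, and carry no test.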

How the data were processed

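Gene expression was deposited by the authors as FPKM per gene, made with fastp, STAR and featureCounts on hg38, per the submitters' processing notes; versions were not given in the sources used here. RNA came from RNeasy columns and NEBNext Ultra libraries, per the labels' protocols. In the deposited FPKM table, the 299165 values of 1 or more (21.2%) had lost the decimal point; the 206596 intact values between 0 and 1, times gene length, fell on whole multiples of a constant for each library, to within 9.09e-13 reads, which gave the reads back and left only the power of 10 to infer. Powers were scored per gene and line with Student t terms (5 degrees of freedom; log10 scales 0.07 between libraries, 0.1 for ibrutinib, 0.13 for asparaginase, 0.08 for the interaction). A first version took the mean library as the level of a group; the median library replaced it after the posteriors of EGR1 and a few other genes had been seen. This changed 220 values in all and 0 values of the members; the EGR1 value in question had a posterior of 0.62 before and 0.848 after. Of the restored values 927, in 484 genes, had a posterior under 0.99. On simulated damage to 57986 values of 3000 genes, 99.9% came back right. This share covers those genes together and does not give the accuracy for single members. The EGR1 value in question kept its posterior of 0.848.

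Tests used limma 3.58.1 in R 4.3.3 (limma-trend, two-sided) on log2(FPKM + 1), a scale that understates the change of low genes, for genes at 1 FPKM or more in at least 3 fitted libraries. Each line was fitted on its 12 libraries (8 residual degrees of freedom), and differences between lines on all 24 (16). P-values were adjusted by Benjamini-Hochberg over all genes tested. On simulated data for ibrutinib in Sem (13247 genes), limma called 100% of genes lowered 2-fold, 64% of those lowered 1.5-fold and 3 unchanged genes. Only genes at 2 FPKM or more in every Sem library were lowered, which leaves out genes at the levels of EGR1, FOS, FOSL1 and JUN. The simulated spread was also smaller than that of EGR1, FOS and FOSL1 in untreated Sem, so these shares do not give the power for them. Alternatives were a pseudocount of 0.1, no filter on low values, quantile normalization, genes with an uncertain decimal place left out, a replicate block, leaving out each library, and, added after seeing the data, leaving out the libraries that stood apart (both correlations lower than their partners' by over 0.001) and EGR1 restored 10 times lower in 1 library. All 10 members are named; from the other lists, the rule named per comparison up to 3 called genes with the lowest adjusted p and any call against the rest of its list. The values of BTG2 with ibrutinib in Sem and of FOSL2 and BATF3 in Nalm6 fall outside this rule and were chosen after they were seen. The members and lists were chosen with earlier results of these data known. Python 3.11.15 was used for the restoration.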

Additional observations from a re-analysis of the deposited data

Results flagged for a closer look

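The drug changes of 15 results differed between the lines by a test of the difference itself (limma, adjusted p under 0.05), as the change in Sem minus that in Nalm6 on the log2(FPKM + 1) scale. With ibrutinib these were EGR1 (-3.37), FOS (-1.03), FOSL1 (-0.75), JUN (-0.36), JUNB (-0.52) and IER2 (-1.06). With asparaginase they were JUND (-1.16) and IER2 (-0.48). With the combination they were EGR1 (-3.55), FOS (-0.93), FOSL1 (-0.91), JUN (-0.36), JUNB (-0.57), JUND (-1.50) and IER2 (-1.84). FOS and FOSL1 were under 1 FPKM in all Nalm6 libraries, so a fall there could hardly have been measured. The ibrutinib and combination differences share the untreated libraries.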

How the results depend on the processing

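Of the member values recomputed under each alternative, 1881 kept their direction and their side of the threshold, 26 lost a call, 27 gained one and 35 changed sign; those that changed sign were not called. With no filter on low values, the genes called with ibrutinib in Nalm6 fell from 1657 to 1056 and those of the Sem interaction from 210 to 136; members called went from 1 to 2 with ibrutinib in Nalm6, from 3 to 5 with the combination in Nalm6, from 1 to 0 with asparaginase in Sem and from 5 to 8 between untreated lines. Quantile normalization gave 854 genes with ibrutinib in Nalm6 and 0 members with asparaginase in Sem. Without the libraries that stood apart, 3326 genes and 2 members were called with ibrutinib in Nalm6, 1583 genes and 1 member for the Nalm6 interaction (from 737 and 0), 4 members with the combination against asparaginase in Nalm6 (from 2) and 0 with asparaginase in Sem. Leaving out genes with an uncertain decimal place, which removes EGR1, gave 1 member for the combination against asparaginase in Nalm6.

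Leaving out 1 library at a time gave 701 to 2216 genes and 1 to 1 member with ibrutinib in Nalm6, 433 to 969 genes for the Nalm6 interaction and 74 to 371 for that of Sem. Members called were 3 to 5 with asparaginase, 3 to 4 with the combination and 2 to 4 with the combination against asparaginase in Nalm6; 6 to 7, 0 to 1 and 5 to 6 with ibrutinib, asparaginase and the combination against asparaginase in Sem; 5 to 6 between untreated lines; and 5 to 7 and 2 to 4 for the differences between lines with ibrutinib and asparaginase.

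Sign changes under other settings were, after quantile normalization, JUNB with the combination in Nalm6 (0.021), IER2 with asparaginase in Sem (0.093), JUND with the combination against asparaginase in Sem (0.087) and JUN between untreated lines (-0.070). Without the libraries that stood apart they were IER2 with ibrutinib in Nalm6 (-0.044), JUN in the Nalm6 interaction (0.013), FOS (0.015) and IER2 (0.012) with asparaginase in Sem and JUN between untreated lines (-0.0057). With EGR1 restored 10 times lower in 1 library they were EGR1 with asparaginase in Sem (-0.58), its Sem interaction (0.48) and its difference between lines with asparaginase (-0.23). In the fits that each left out 1 library, some results had lowest and highest values of opposite sign. These were -0.044 and 0.078 for IER2 with ibrutinib in Nalm6. For the combination against asparaginase they were -0.095 and 0.16 for JUNB in Nalm6 and -0.11 and 0.055 for JUND in Sem. With asparaginase in Sem they were -0.26 and 0.12 for FOS, -0.095 and 0.12 for FOSL1, -0.016 and 0.031 for JUNB and -0.10 and 0.10 for IER2. JUN between untreated lines had -0.015 and 0.073. The differences between lines with asparaginase had -0.28 and 0.10 for FOS and -0.18 and 0.03 for FOSL1. The cause was not tested.

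Replicate numbers are shared by the groups. Same-numbered libraries had a median correlation of deviations of 0.027 in Nalm6 and 0.029 in Sem, beside -0.0095 and -0.016 for other pairs. Over 0.1 were 2 and 1 of 18 same-numbered pairs, up to 0.36 in Nalm6, and 7 and 1 of 36 other pairs. These values do not settle whether the libraries were paired. With a replicate block, 1483 genes were called with ibrutinib in Nalm6 (1657 without it) and 5799 in Sem (5556 without it). The count of members called changed for the asparaginase difference between lines only, from 2 to 3 (EGR1, adjusted p = 0.024), and JUN between untreated lines was at -0.010. That EGR1 call used 980 reads in Sem asparaginase library 1. With 98 reads and no block the difference was -0.23 (adjusted p = 0.755). Depth limits EGR2, EGR3, FOSB and, in Nalm6, FOS and FOSL1, each with 45 reads or fewer per library.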
